A study of Mus musculus with 2 samples.

Results

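Cytosolic ribosomal protein genes were compared in mouse CGR8 embryonic stem cells between 1 RNA-seq library made after transfection with an siRNA against Set1a and 1 made after transfection with a negative control siRNA. The cells of both libraries were grown without feeders on gelatin, in serum with leukaemia inhibitory factor, and received their siRNA 2 times over 72 hours. The members are the genes named Rpsa, Rplp0, Rplp1, Rplp2, or Rps or Rpl with a number followed by nothing, a, x, y, l or l1, apart from the Rps6k kinases, Rpl22 and Rpl22l1. The rule found 82 of 22421 genes, on 19 chromosomes: 75 core genes of the ribosome and 7 genes with the ending l or l1, which are paralogs or copies of core genes. Where a gene had several listed transcripts, the one with the highest value summed over both libraries stood for it. With 1 cell line, 1 siRNA label and 1 library per group, the spread between cultures or between siRNAs was not measured, and no difference below has a replicate check or a p-value. In bulk RNA, fewer cells expressing a gene and less RNA per cell cannot be told apart.

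The cytosolic ribosome reads messenger RNA on its small (40S) subunit and joins amino acids on its large (60S) subunit, and each subunit carries ribosomal RNA and a fixed set of proteins, nearly all in single copy. Ribosomal protein messenger RNAs are among the most abundant in growing cells. In mammals they begin with a C followed by pyrimidines, the 5′ terminal oligopyrimidine or TOP sequence, which links their translation to the growth kinase mTOR. Most genes have many processed pseudogenes in the mouse genome. Embryonic stem cells divide fast and keep ribosome production high.

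Set1a is listed as Setd1a and encodes a methyltransferase of histone H3 lysine 4. Setd1a was at 11.97 RPKM (reads per length of transcript, relative to the depth of the library) in the Set1a siRNA library and 14.2 RPKM in the control siRNA library, which gives a ratio of 0.846 with a counting interval of 0.739 to 0.968. The log2 of the Setd1a ratio, with 1 RPKM added to both values, was -0.22. Setd1a thus did not reach the ratio of at most 0.8 used below for the members. Among all 11802 genes of at least 1 RPKM, 25.2% were lower by at least 1.1-fold. Whether the siRNA lowered Setd1a was not tested, and its protein was not measured here. Recovered depths were about 6400000 reads with Set1a siRNA and 6660000 with control siRNA. All 8 embryonic stem cell markers searched were present and summed to 3702 RPKM with Set1a siRNA and 4021 RPKM with control siRNA, from 83.7 to 1692 RPKM in the Set1a siRNA library and from 79.5 to 2004 RPKM in the control siRNA library. The 6 fibroblast markers summed to 4.30 RPKM with Set1a siRNA and 2.49 RPKM with control siRNA, with Col1a2, Dcn and Postn at 0 in both, and the 4 endoderm markers to 1.26 RPKM with Set1a siRNA and 1.12 RPKM with control siRNA. The 4 mesoderm markers summed to 1.07 RPKM with Set1a siRNA and 0.768 RPKM with control siRNA. The 4 neural markers summed to 33.8 RPKM with Set1a siRNA and 30.3 RPKM with control siRNA, of which 1 marker gave 30.2 RPKM with Set1a siRNA and 27.2 RPKM with control siRNA. The part of these marker levels in the results below was not tested.

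Ribosomal protein transcripts were slightly lower as a group in the Set1a siRNA library. Rpl3l, the muscle paralog of Rpl3, was at 0.795 RPKM with Set1a siRNA and 0.548 RPKM with control siRNA and lay below the floor of a mean of 1 RPKM, which the other 81 members passed. Their values summed to 83489 RPKM in the Set1a siRNA library and 88822 RPKM in the control siRNA library, which gives a ratio of 0.940. The counting interval of this ratio, with each gene's counting error weighted by its level over the 80 members with recovered reads, was 0.934 to 0.945. The sums made 22.1% of the summed RPKM of all genes in the Set1a siRNA library and 23.3% in the control siRNA library. Over coding length alone (for Rps4l, over its matched transcript), a lower bound, these levels amount to 281444 reads with Set1a siRNA and 307725 with control siRNA. That is 4.398% (exact Clopper-Pearson interval 4.382 to 4.414) of the depth with Set1a siRNA and 4.621% (4.605 to 4.637) with control siRNA. Of the 81 members, 61 were lower and 20 higher. Across all 11802 genes of at least 1 RPKM, 48.8% were lower, and across the 451 other genes of at least 100 RPKM, 48.6%. The median log2 fold of the members, log2 of the ratio with 1 RPKM added to both values, was -0.08, with quartiles of -0.19 and -0.01. Over all genes of at least 1 RPKM that median was 0.01, and over the 451 other genes of at least 100 RPKM it was 0.01.

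**Figure D1:**
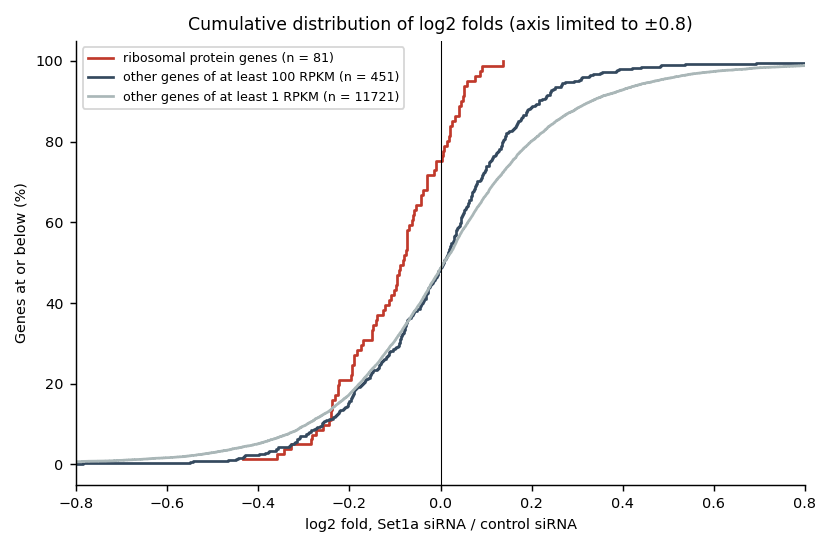
Cumulative share of genes (y axis, percent) at or below each log2 fold of the Set1a siRNA library over the control siRNA library (x axis), for 81 ribosomal protein genes, 451 other genes of at least 100 RPKM and 11721 other genes of at least 1 RPKM. The curve of the ribosomal protein genes crosses 0 at 75.3%, against 48.6% for both other curves.

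No single member differed strongly. At a ratio of at most 0.8 (with 1 RPKM added), 4 members were lower, and 0 were higher by the inverse of that ratio. Among all genes of at least 1 RPKM, 8.14% were lower and 10.4% higher by this rule, and among other genes of at least 100 RPKM, 5.32% were lower and 3.99% higher. The 4 lower members of 81 are near that background, so their number is no result about the group. At 1.1-fold, a rule added after seeing the data, 30 members (37.0%) were lower and 1 (1.23%) was higher. The background was 25.2% lower and 27.4% higher among all genes of at least 1 RPKM, and 23.9% lower and 19.7% higher among other genes of at least 100 RPKM. Of 80 members with an interval from recovered reads, 44 (55.0%) had one wholly below 1 and 5 (6.25%) one wholly above 1. Of 436 other genes of at least 100 RPKM with an interval, 22.2% lay wholly below 1 and 22.0% wholly above it. The width of an interval depends on read number, for which these sets were not matched. The median level of the members was 991 RPKM with Set1a siRNA and 1075 RPKM with control siRNA. Among the other genes of at least 100 RPKM it was 157 RPKM with Set1a siRNA and 160 RPKM with control siRNA. The intervals cover counting error only.

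The 3 members with the lowest ratios encode very small proteins. Rps28, a small-subunit protein at the exit of the messenger RNA channel, was at 602 RPKM in the Set1a siRNA library and 814 RPKM in the control siRNA library, which gives a ratio of 0.740 with a counting interval of 0.675 to 0.811. Rpl39, which lines the exit tunnel of the large subunit, was at 705 RPKM with Set1a siRNA and 905 RPKM with control siRNA, which gives a ratio of 0.779 (0.706 to 0.860). Rps29, a zinc-binding protein of the small-subunit head, was at 981 RPKM with Set1a siRNA and 1245 RPKM with control siRNA, which gives a ratio of 0.788 (0.727 to 0.854). Rps28 has 69 residues, Rpl39 51 and Rps29 56. Rpl36a, of the large subunit, was at 669.8 RPKM with Set1a siRNA and 842 RPKM with control siRNA, which gives a ratio of 0.796 (0.741 to 0.854), and encodes 106 residues. Rps24, mutated in some patients with Diamond-Blackfan anaemia, was at 1003 RPKM with Set1a siRNA and 1219.7 RPKM with control siRNA, which gives a ratio of 0.823 (0.781 to 0.867). Rpl24, which forms a bridge between the subunits, was at 481 RPKM with Set1a siRNA and 582 RPKM with control siRNA, which gives a ratio of 0.827 (0.772 to 0.886). The counting intervals of these 6 core genes lie below 1.

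The members with the highest ratios lay close to 1. Rpl29 was at 789.6 RPKM in the Set1a siRNA library and 718 RPKM in the control siRNA library, which gives a ratio of 1.1004 (1.04 to 1.17), the highest of the core genes. Rps23, at the decoding centre of the small subunit, was at 2094 RPKM with Set1a siRNA and 1972 RPKM with control siRNA, which gives a ratio of 1.06 (1.02 to 1.102). The counting intervals of Rpl27, Rps19 and Rpl26 held 1. Rps19, the most often mutated gene in Diamond-Blackfan anaemia, was at 714 RPKM with Set1a siRNA and 686 RPKM with control siRNA.

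**Figure D2:**
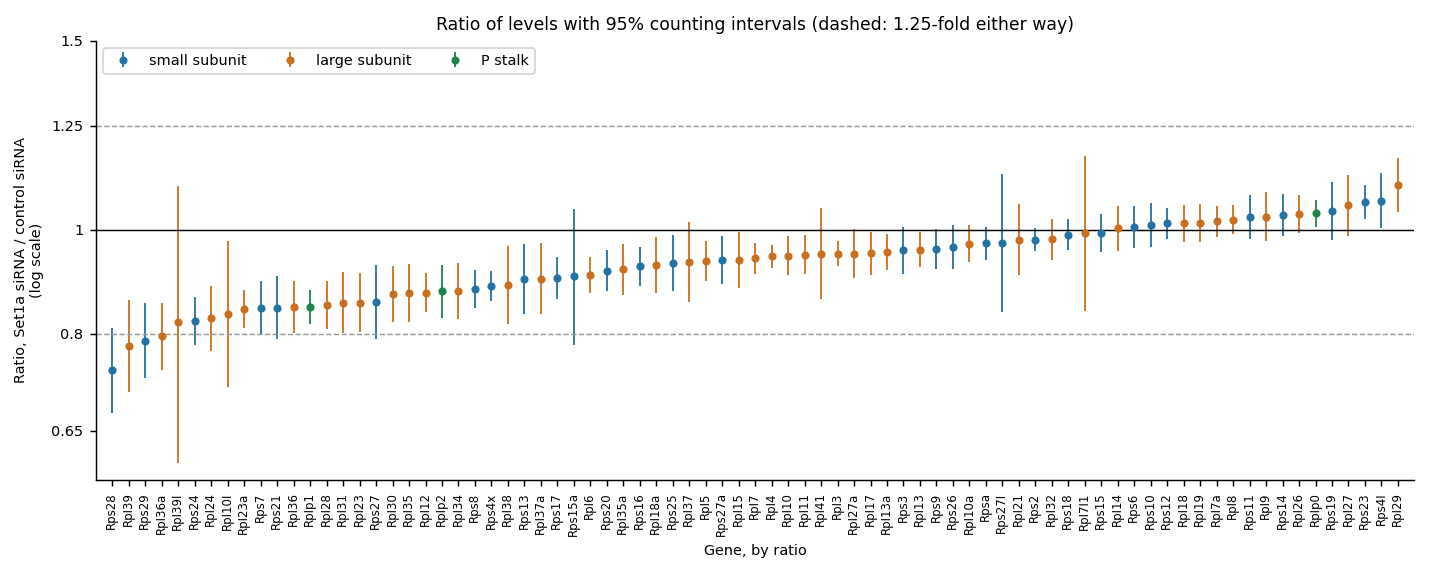
Ratio of the Set1a siRNA level to the control siRNA level (y axis, log scale) for 79 ribosomal protein genes ordered by ratio, with 95% counting intervals as bars and colours for the small subunit, the large subunit and the P stalk. The ratios run from 0.740 for Rps28 to 1.1004 for Rpl29, and the 4 lowest lie under the dashed line at 0.8.

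Levels spread widely although the ribosome holds its core proteins in near equal numbers. The core genes ranged from 140.1 to 2587 RPKM in the Set1a siRNA library and from 155 to 2822 RPKM in the control siRNA library, with medians of 1012 RPKM with Set1a siRNA and 1127 RPKM with control siRNA. Rplp1 had the highest mean, at 2392 RPKM with Set1a siRNA and 2822 RPKM with control siRNA, and Rps12 followed with 2587 RPKM with Set1a siRNA and 2552 RPKM with control siRNA. Their order therefore differs between the libraries. Then came the small-subunit genes Rps18, at 2252 RPKM with Set1a siRNA and 2275 RPKM with control siRNA, Rps2, at 2168 RPKM with Set1a siRNA and 2215 RPKM with control siRNA, and Rps23. Rps20, at 1655 RPKM with Set1a siRNA and 1807 RPKM with control siRNA, and Rps15, at 1658 RPKM with Set1a siRNA and 1669 RPKM with control siRNA, were next and are close to each other. Rps15a had the lowest level of the core genes, at 140.1 RPKM with Set1a siRNA and 155 RPKM with control siRNA. The annotated transcript matched to it is 5179 nucleotides long, and how that length enters its deposited level was not tested. Rpl21 followed with 428 RPKM with Set1a siRNA and 437 RPKM with control siRNA, Rps13 with 448 RPKM with Set1a siRNA and 498 RPKM with control siRNA, then Rpl24, Rpl15 with 525 RPKM with Set1a siRNA and 559.8 RPKM with control siRNA, and Rpl37 with 543 RPKM with Set1a siRNA and 582 RPKM with control siRNA. The order of the core genes was nearly the same in both libraries, with a Spearman correlation of 0.974 across 75 genes, which are not independent replicates and share each library.

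**Figure D3:**
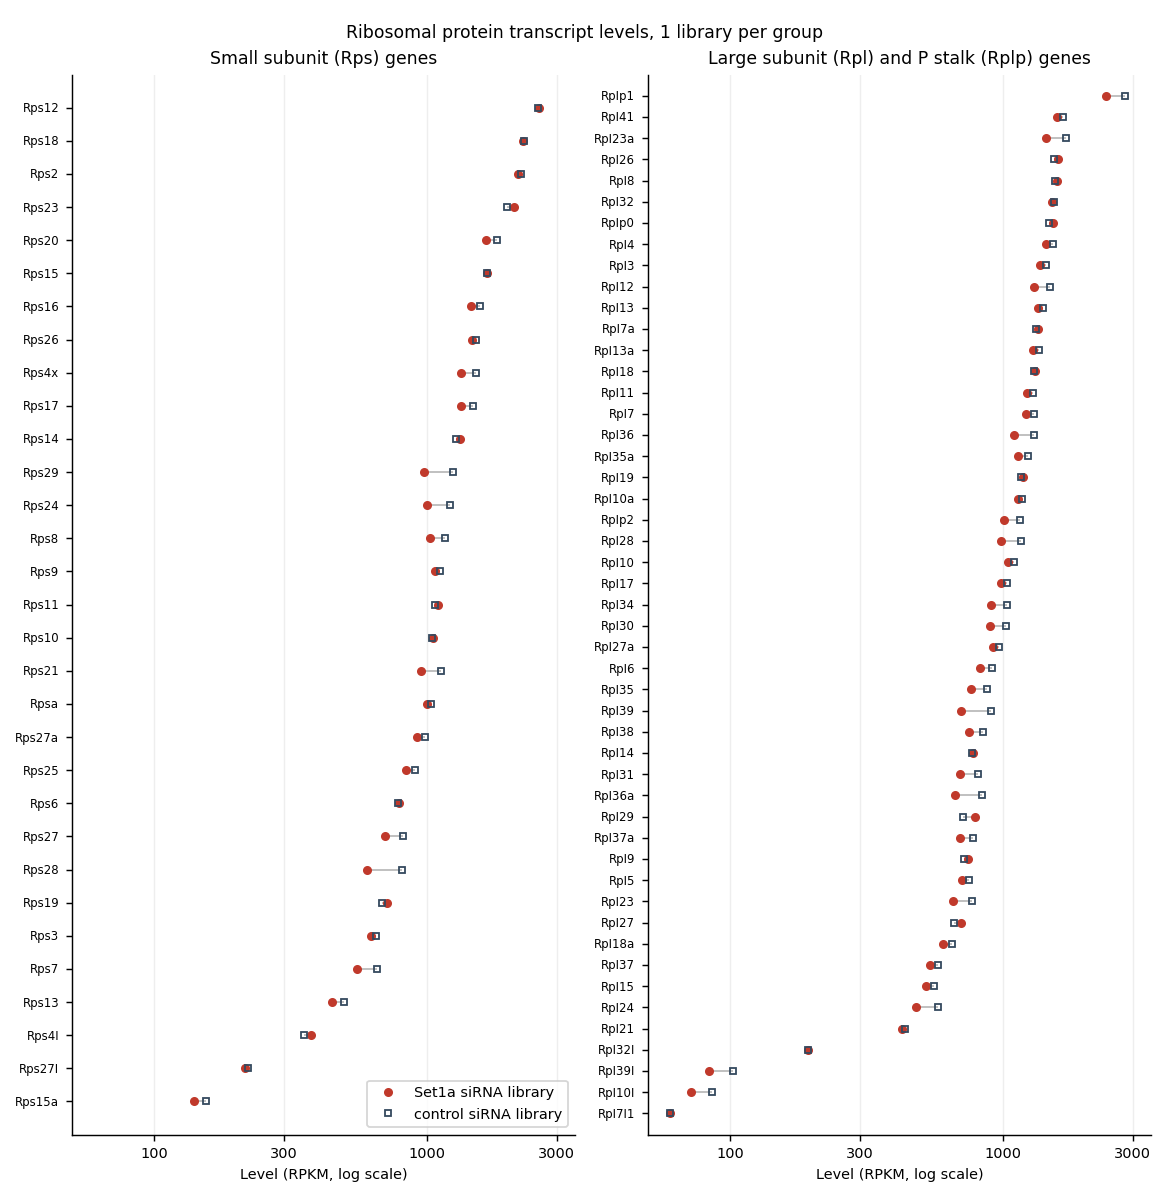
Level of each of 80 ribosomal protein genes (x axis, RPKM on a log scale) in the Set1a siRNA library (filled circles) and the control siRNA library (open squares), with small-subunit genes on the left and large-subunit and P stalk genes on the right. Rplp1, Rps12, Rps18, Rps2 and Rps23 lead, and the circle lies visibly left of the square for Rps28, Rps29, Rpl39 and Rpl36a.

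Most genes of either subunit were lower. The 30 core small-subunit genes summed to 35507 RPKM in the Set1a siRNA library and 37418 RPKM in the control siRNA library, and 22 were lower and 8 higher, at a median log2 fold of -0.08. The 42 core large-subunit genes summed to 42040.2 RPKM with Set1a siRNA and 44928 RPKM with control siRNA, and 33 were lower and 9 higher, at a median log2 fold of -0.09. The share lower was 73.3% for the small subunit and 78.6% for the large, beside 48.8% of all genes of at least 1 RPKM. Whether the subunits differ was not tested. Rpsa, the laminin-receptor protein of the small subunit, was at 1007 RPKM with Set1a siRNA and 1037 RPKM with control siRNA, which gives a ratio of 0.971 (0.937 to 1.01).

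The transcripts of the P stalk, which recruits the translation factors that hydrolyse GTP, were uneven. Those of its acidic tip proteins were lower: Rplp1 had a ratio of 0.848 (0.817 to 0.879), and Rplp2, at 1012 RPKM with Set1a siRNA and 1155 RPKM with control siRNA, had one of 0.876 (0.828 to 0.927). The transcript of the base protein Rplp0 was at 1535 RPKM in the Set1a siRNA library and 1482 RPKM in the control siRNA library, which gives a ratio of 1.04 (1.01 to 1.07). In the particle, tip proteins form dimers on Rplp0, but protein levels were not measured here. Rplp0 encodes 317 residues, Rplp1 114 and Rplp2 115.

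Rpl5 and Rpl11 bind 5S ribosomal RNA, and as a free particle they bind Mdm2, the ubiquitin ligase of p53. Rpl5 was at 708 RPKM in the Set1a siRNA library and 756 RPKM in the control siRNA library, which gives a ratio of 0.936 (0.897 to 0.977). Rpl11 was at 1228 RPKM with Set1a siRNA and 1295 RPKM with control siRNA, which gives a ratio of 0.948 (0.909 to 0.989). Both ratios are near the members' median ratio of 0.944.

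At the rim of the peptide exit tunnel, 5 of 7 genes were lower and 2 higher, and the median log2 fold was -0.20. Besides Rpl39, Rpl23a had a ratio of 0.844 (0.811 to 0.878), Rpl31 of 0.855 (0.802 to 0.913) and Rpl35 of 0.873 (0.820 to 0.930). The coding lengths are 156 nucleotides for Rpl39, 378 for Rpl31, 372 for Rpl35 and 471 for Rpl23a. The part of coding length in the median of this group was not tested. Along the messenger RNA channel of the small subunit, 6 of 9 were lower and 3 higher, with a median of -0.03, and apart from Rps28 all lay within 1.1-fold of 1, among them Rps3 at 0.957 (0.910 to 1.01) and Rps9 at 0.960 (0.919 to 1.002). Near the peptidyl transferase centre, Rpl4 had a ratio of 0.944 (0.921 to 0.969), Rpl10 of 0.946 (0.908 to 0.986), Rpl3 of 0.9501 (0.925 to 0.975) and Rpl8 of 1.02 (0.990 to 1.05). Their median log2 fold was -0.08. Of 18 genes mutated in Diamond-Blackfan anaemia, a failure of red cell production, 12 were lower and 6 higher, with a median of -0.09. Across all 81 members 75.3% were lower, and across all genes of at least 1 RPKM 48.8%. The shares lower at the tunnel rim (71.4%), along the messenger RNA channel (66.7%) and among the anaemia genes (66.7%) do not exceed that of the members. Rps29 and Rps24 were lowest, followed by Rps7 with a ratio of 0.846 (0.798 to 0.897) and Rpl31.

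**Figure D4:**
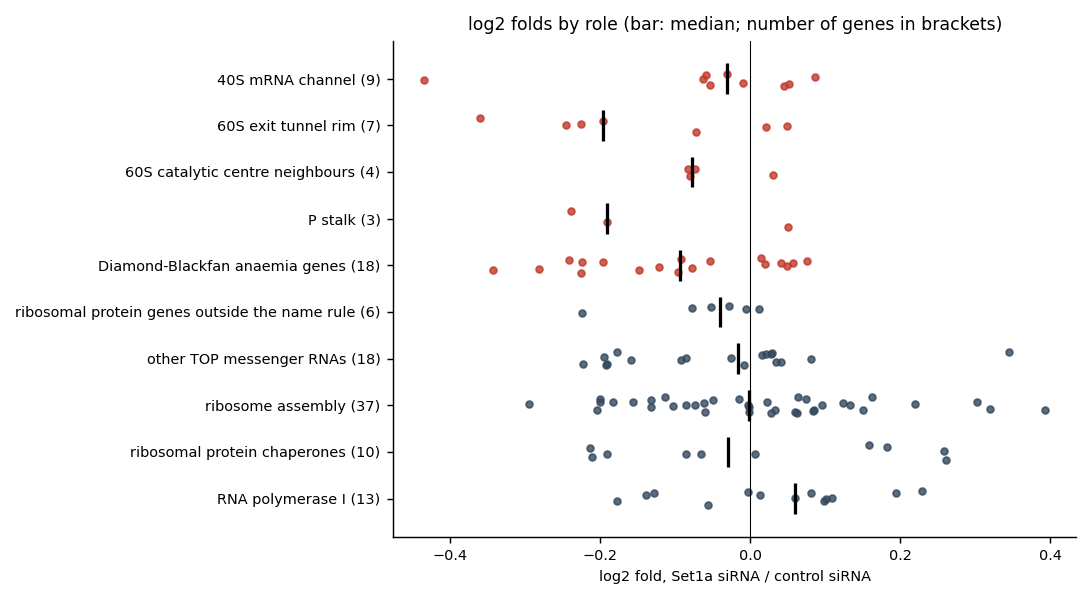
log2 fold of each gene (x axis, Set1a siRNA over control siRNA) in 5 groups of ribosomal protein genes (red) and 5 related lists (dark blue), with the median as a bar and the number of genes in brackets. The tunnel rim and the P stalk have medians of -0.20 and -0.19, while those of the messenger RNA channel and the related lists lie between -0.04 and 0.06. The groups were not matched for coding length, and its part in these medians was not tested.

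Within the core genes the log2 fold went with coding length. The Spearman correlation across 75 core genes was 0.47, and across 412 other genes of at least 100 RPKM it was 0.18. Of 5 core genes with a coding length under 250 nucleotides, all 5 were lower, with a median log2 fold of -0.34. Of 18 genes from 250 to under 400 nucleotides, 17 were lower, with a median of -0.19. The 31 genes from 400 to under 600 nucleotides had a median of -0.06, with 20 lower, and the 21 longer genes one of -0.06, with 15 lower. The other genes of at least 100 RPKM had medians of -0.12 (19 genes), -0.06 (64), -0.0034 (56) and 0.02 (273) in the same 4 classes. Of these other genes, 14 of 19, 38 of 64, 29 of 56 and 121 of 273 were lower. The shortest class of either set and the next class of the core genes hold under 20 genes each. With the length trend of other genes removed, 57 of 79 members with a coding length were lower, beside 199 of 412 other genes of at least 100 RPKM. The members' median was then -0.08, and 1 of the 4 members at a ratio of at most 0.8 was left, Rps28. For the other 3, the log2 fold with the trend removed was -0.29 for Rpl36a (-0.33 before), -0.28 for Rpl39 (-0.36 before) and -0.27 for Rps29 (-0.34 before). The trend was fitted to other genes of at least 10 RPKM, and the part of coding length in these folds was not tested. The medians of the core genes in the 4 classes were then -0.27, -0.16, -0.05 and -0.06. Short core genes with ratios near 1 also occurred: Rps12, with 132 residues, had a ratio of 1.01 (0.980 to 1.05), and Rpl41, the smallest protein of the ribosome with 25 residues, was at 1582 RPKM with Set1a siRNA and 1666 RPKM with control siRNA, which gives a ratio of 0.9499 (0.862 to 1.05). The coding sequences of Rpl39, among the lowest members, and of Rpl41 show how short these messages are; both are from GENCODE M21 on GRCm38, 5′ to 3′ and in lower case throughout.
Rpl39: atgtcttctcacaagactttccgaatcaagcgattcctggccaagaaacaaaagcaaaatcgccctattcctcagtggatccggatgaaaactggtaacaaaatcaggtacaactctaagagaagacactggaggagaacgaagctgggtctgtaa
Rpl41: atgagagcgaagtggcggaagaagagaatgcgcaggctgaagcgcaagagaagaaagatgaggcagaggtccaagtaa

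**Figure D5:**
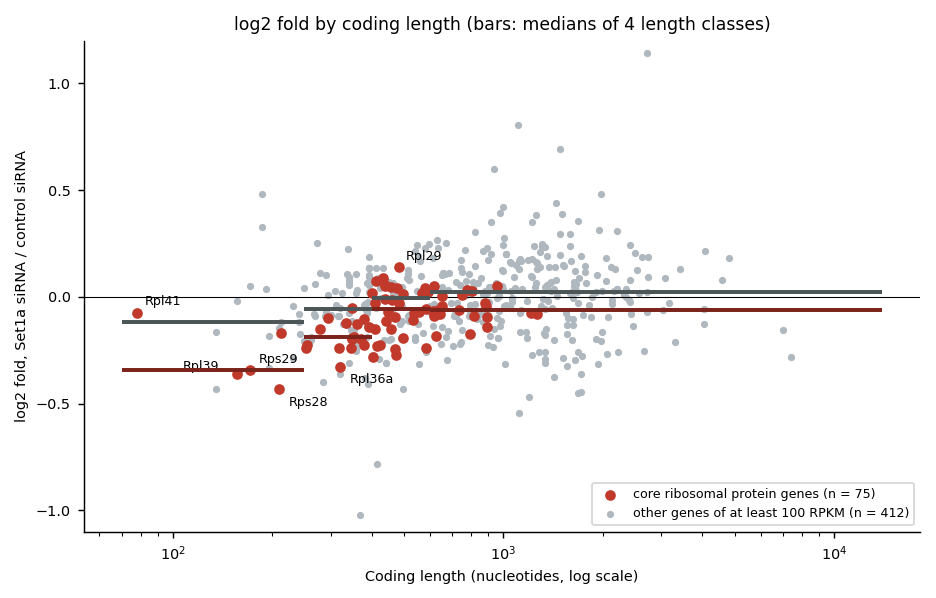
log2 fold of the Set1a siRNA library over the control siRNA library (y axis) against coding length in nucleotides (x axis, log scale) for 75 core ribosomal protein genes (red) and 412 other genes of at least 100 RPKM (grey). Horizontal bars give the medians of 4 length classes: the red bars are at -0.34, -0.19, -0.06 and -0.06 and lie below the grey ones in each class.

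Short motifs were searched only around the annotated start of the members. Of the 81 members, 60 had an entry in the RefSeq promoter table (GRCm38.p6), which gives 250 bases before and 50 after the annotated start; the first entry of each gene was used. A C followed by at least 7 C or T within 50 bases of the start, on the sense strand, was found in 48 of 60 members (80.0%) and in 28.7% of 27025 genes in the table. The motif CTTTC in the same window was found in 29 members (48.3%) and in 12.6% of all genes, and CTCTTT, which can overlap it, in 18 of 60 members and in 3.91% of all genes. Among other genes of at least 100 RPKM, these shares were 29.8%, 13.6% and 3.69%. CGGAAG, the core that ETS-family factors recognise, was found on either strand of the 300 bases in 41 members (68.3%), in 30.1% of other genes of at least 100 RPKM and in 17.2% of all genes. TATAAA on either strand was found in 6 of 60 members, in 11.9% of other genes of at least 100 RPKM, in 6.91% of other genes of at least 1 RPKM and in 14.2% of all genes. The motifs were chosen from what is known of these promoters, with their shares seen. They mark letters, not bound sites.

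The members' log2 folds are given beside these letters as a description. The 48 members with the long pyrimidine run had a median log2 fold of -0.08 and the 12 without it one of -0.11. The 29 members with CTTTC had -0.10 and the 31 without it -0.06. The 18 members with CTCTTT had -0.10 and the 42 without it -0.08. The 41 members with CGGAAG had -0.10, with 35 lower, and the 19 without it -0.04, with 11 lower. The 6 members with TATAAA had -0.18, with 4 lower, and the 54 without it -0.08, with 42 lower. Among all 81 members 75.3% were lower, and among all genes of at least 1 RPKM 48.8%. None of the differences between members with and without a motif was tested. Start regions of 7 members show the range of what the annotation holds there, from 30 bases before to 15 after the start, with the longest C-led run of pyrimidines in capitals. Rpl35 and Rpl28 were among the lower genes, Rpl27a, Rpl18 and Rps6 lay near 1, and Rps28 and Rps23 are the lowest and highest with an entry; these 2 lack a long run there.
Rpl35 (chr2:39005117-39005161, minus strand): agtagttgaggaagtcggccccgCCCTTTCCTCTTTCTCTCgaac
Rpl28 (chr7:4792935-4792979, plus strand): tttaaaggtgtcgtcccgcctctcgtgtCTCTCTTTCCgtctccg
Rpl27a (chr7:109519165-109519209, plus strand): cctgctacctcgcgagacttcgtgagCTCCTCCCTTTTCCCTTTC
Rpl18 (chr7:45718041-45718085, plus strand): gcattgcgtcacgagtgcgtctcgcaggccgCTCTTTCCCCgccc
Rps6 (chr4:86857353-86857397, minus strand): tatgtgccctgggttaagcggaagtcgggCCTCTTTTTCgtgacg
Rps28 (chr17:33824548-33824592, minus strand): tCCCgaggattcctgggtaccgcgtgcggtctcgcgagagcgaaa
Rps23 (chr13:90923092-90923136, plus strand): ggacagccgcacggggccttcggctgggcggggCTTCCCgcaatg

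The 6 paralogs and copies above the floor ranged from 60.1 to 377 RPKM with Set1a siRNA and from 60.5 to 354 RPKM with control siRNA. Rps4l, Rps27l and Rpl32l lay above Rps15a, the lowest of the core genes. All 6 lay below Rpl21, the next lowest core gene, at 428 RPKM with Set1a siRNA and 437 RPKM with control siRNA. Rpl10l, a copy of the X-linked Rpl10 known for its part in male germ cells, was at 71.7 RPKM in the Set1a siRNA library and 85.9 RPKM in the control siRNA library, which gives a ratio of 0.835 (0.714 to 0.975). Rpl10 was at 1047 RPKM with Set1a siRNA and 1107 RPKM with control siRNA. Their coding sequences are 84.8% identical. Rpl39l was at 84.2 RPKM with Set1a siRNA and 103 RPKM with control siRNA, which gives a ratio of 0.820 (0.606 to 1.097), and is 85.3% identical to Rpl39, with 23 of 156 bases unlike it. Rps27l, known in human cells as a p53 target, was at 216 RPKM with Set1a siRNA and 222 RPKM with control siRNA, which gives a ratio of 0.973 (0.838 to 1.13), while Rps27 was at 704 RPKM with Set1a siRNA and 822 RPKM with control siRNA, which gives a ratio of 0.856 (0.791 to 0.927). Their coding sequences are 76.1% identical. Rpl7l1 was at 60.1 RPKM with Set1a siRNA and 60.5 RPKM with control siRNA, which gives a ratio of 0.993 (0.840 to 1.17), and is 62.1% identical to Rpl7. Rps4l, listed under a non-coding accession, was at 377 RPKM with Set1a siRNA and 354 RPKM with control siRNA, which gives a ratio of 1.06 (1.004 to 1.13), while Rps4x was at 1341 RPKM with Set1a siRNA and 1514 RPKM with control siRNA. Rpl32l was at 193.1 RPKM with Set1a siRNA and 192.6 RPKM with control siRNA and has no interval, as no length matched it.

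Near-identical copies limit what a value of 1 gene can mean. Of 79 members whose coding sequence was searched, 76 had at least 1 other annotated gene that shared 90% or more of its bases over a stretch of 50% or longer, and the median was 10 such genes. Rpl7a had the most, 85. Rpl8 and Rpl39l were among those with none, with ratios of 1.02 for Rpl8 and 0.820 for Rpl39l. The 39 members with fewer than 10 copies had a median log2 fold of -0.10, with 31 lower, and the 40 members with 10 or more one of -0.08, with 30 lower. Among all genes of at least 1 RPKM, 48.8% were lower. How reads that match several copies were counted is not given in the sources used here. The listed gene Rps27rt shows the limit: its coding sequence has 0 mismatches to that of Rps27 over 255 bases, it was at 706 RPKM in the Set1a siRNA library and 824 RPKM in the control siRNA library, and its ratio of 0.856 equals that of Rps27 to 3 digits. The pseudogene Rpl34-ps1 was at 874 RPKM with Set1a siRNA and 994 RPKM with control siRNA, which gives a ratio of 0.880, beside 0.877 for Rpl34. Rps15a-ps4, at 234 RPKM with Set1a siRNA and 213 RPKM with control siRNA, and Rps15a-ps6, at 270.5 RPKM with Set1a siRNA and 249 RPKM with control siRNA, had ratios of 1.0996 and 1.09, beside 0.906 for Rps15a. Rps19-ps3, at 151 RPKM with Set1a siRNA and 193 RPKM with control siRNA, had a ratio of 0.779 (0.685 to 0.889), beside 1.04 for Rps19, and Rps23rg1, at 304 RPKM with Set1a siRNA and 305 RPKM with control siRNA, had 0.997 (0.904 to 1.097), beside 1.06 for Rps23. The interval of Rps19-ps3 lay below that of Rps19 (0.978 to 1.11), but reads shared by copy and parent may enter both. Whether their ratios differ was not tested. The interval of Rps15a-ps4 (0.992 to 1.22) overlapped that of Rps15a (0.782 to 1.05), and that of Rps23rg1 overlapped that of Rps23 (1.02 to 1.102). Rps15a-ps6 and Rpl34-ps1 have no interval. Coding sequences of Rps27, its identical copy and Rps27l (GENCODE M21, 5′ to 3′) show the difference, with bases unlike Rps27 in capitals.
Rps27: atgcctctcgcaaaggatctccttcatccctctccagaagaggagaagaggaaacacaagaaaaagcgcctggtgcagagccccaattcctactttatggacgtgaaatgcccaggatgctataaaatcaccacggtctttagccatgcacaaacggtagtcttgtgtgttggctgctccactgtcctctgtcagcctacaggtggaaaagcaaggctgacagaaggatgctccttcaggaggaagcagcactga
Rps27rt: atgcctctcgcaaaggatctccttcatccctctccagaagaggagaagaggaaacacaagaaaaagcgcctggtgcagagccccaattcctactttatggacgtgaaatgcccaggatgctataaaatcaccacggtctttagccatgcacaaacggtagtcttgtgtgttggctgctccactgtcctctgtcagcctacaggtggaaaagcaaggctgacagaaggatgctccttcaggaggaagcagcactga
Rps27l: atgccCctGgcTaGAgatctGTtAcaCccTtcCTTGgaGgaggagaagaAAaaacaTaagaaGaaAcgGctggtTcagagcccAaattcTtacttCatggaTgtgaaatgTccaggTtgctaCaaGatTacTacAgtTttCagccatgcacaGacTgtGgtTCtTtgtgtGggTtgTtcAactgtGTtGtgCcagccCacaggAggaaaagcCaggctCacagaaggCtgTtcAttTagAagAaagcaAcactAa

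Several members had more than 1 listed transcript. The 3 transcripts of Rps24 had ratios of 0.822 to 0.823, those of Rps27 had 0.856 and 0.855, and those of Rpl38 ranged from 0.837 to 0.888. Rpl35a ranged from 0.878 to 0.919, and Rpl30 had 0.849 and 0.872. The transcripts of Rpl3l, all under 1 RPKM in both libraries, had ratios of 1.45 and 2.59. Transcripts of 1 gene do not count as separate measurements.

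The medians of 5 lists of related genes lay nearer to 0 than that of the members. For the counts below, the share lower among all genes of at least 1 RPKM was 48.8%. Of 6 ribosomal protein genes whose names the rule does not reach, 5 were lower and 1 higher, and the median log2 fold was -0.04. Among them, Rps27rt had the lowest ratio, 0.856 (0.791 to 0.926). Its coding sequence is identical to that of the member Rps27, so this list is not independent of the members. Rps3a1 had a ratio of 0.948 (0.920 to 0.978) and Rpl36al of 0.964 (0.865 to 1.07). Of 18 other messages of the TOP class, 10 were lower and 8 higher, at a median of -0.02. Naca, of the nascent polypeptide-associated complex, had a ratio of 0.856 (0.805 to 0.911), its partner Btf3 of 0.876 (0.816 to 0.940) and Hnrnpa1 of 0.874 (0.837 to 0.911). Vim, the intermediate filament gene vimentin, was at 93.5 RPKM with Set1a siRNA and 73.4 RPKM with control siRNA, which gives a ratio of 1.27 (1.15 to 1.41).

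Of 37 ribosome assembly genes, 19 were lower and 18 higher, beside 48.8% lower among all genes of at least 1 RPKM. Their median log2 fold was -0.0015. The small-subunit assembly factor Bms1 was at 29.0 RPKM in the Set1a siRNA library and 21.8 RPKM in the control siRNA library, which gives a ratio of 1.33 (1.19 to 1.49). Nle1 had a ratio of 1.26 (1.01 to 1.59), Rrp9 of 1.24 (1.08 to 1.42) and Sbds, mutated in Shwachman-Diamond syndrome, of 0.807 (0.599 to 1.07). Of 10 chaperones and importins of ribosomal proteins, 5 were lower and 5 higher, with a median of -0.03. Grwd1, a chaperone of Rpl3, had a ratio of 1.205 (1.02 to 1.43) and Heatr3 of 1.21 (1.02 to 1.42), while the importins Ipo7 and Ipo5 had 0.861 (0.804 to 0.922) and 0.863 (0.819 to 0.909). Of 13 RNA polymerase I genes and factors, 8 were higher and 5 lower, with a median of 0.06. Ubtf had a ratio of 1.15 (1.02 to 1.28), and the intervals of Taf1c, Cd3eap and Taf1b included 1.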

How the data were processed

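RNA-seq values for 28430 RefSeq transcripts of 2 libraries were used, 1 per group, grouped by the transfection label. The values as deposited by the authors carry no header; RPKM was inferred, since low values times transcript length moved in whole steps. Of values of 1 to 5 reads, 74.0% (Set1a siRNA) and 74.6% (control siRNA) lay within 0.1 of a whole read, which gave the depths. The submitters' processing notes name SAMtools 0.1.16, TopHat2 2.0.12, TopHat and CASAVA, and the build mm9, without their roles. The counting program, its use of strand and its rule for multiply matching reads were not given in the sources used here.

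Symbols for 98.3% of transcripts, lengths and sequences came from RefSeq GRCm38.p6 and GENCODE M21 tables, so no mm9 coordinates are given. Folds are log2((Set1a siRNA RPKM + 1)/(control siRNA RPKM + 1)) at a mean of at least 1 RPKM; ratios use the deposited RPKM. Exact Clopper-Pearson 95% intervals use reads over the coding length only, a lower bound on read number, so they are on the wide side. Genes without a coding length, such as Rps4l, were given reads over the matched transcript, so this does not hold for them. Genes were named by role, lowest and highest ratio, and lowest and highest level, as were the farthest members of each list; pseudogenes, transcripts, Rps4x and the other parent genes were chosen after their values were seen, as were Rpl41 and Rps12 as short genes. The members and lists were chosen with earlier results of these data known. Copies were searched with BLAST 2.17.0, and coding sequences aligned with biopython 1.88. Depth recovery, folds and intervals were tested on simulated counts. Python 3.11.15 with numpy 2.4.6, pandas 2.3.3, scipy 1.17.1 and matplotlib 3.10.9 was used. Alternatives tried were pseudocounts, floors, scalings, the transcript per gene, the fold rule, a read minimum, removal of a length trend and removal of paralogs. Of the genes counted in the totals, 1 member and 1 related gene are not reported here by name.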

Additional observations from a re-analysis of the deposited data

How the results depend on the processing

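The members' median log2 fold and the ratio of their summed levels kept their direction in every setting run. The median ranged from -0.09 without paralogs and copies to -0.08 with the length trend of other genes removed, and the ratio of sums from 0.939 with the transcript of the most reads to 0.942 with median-of-ratios scaling. The count of 4 members at a ratio of at most 0.8 became 0 under the 1.5-fold rule, 0 under the 2-fold rule and 30 under the 1.1-fold rule, as fewer or more genes pass by construction. It was 1 with the length trend removed, where Rpl36a, at -0.29, Rpl39, at -0.28, and Rps29, at -0.27, no longer passed. The count of 0 members higher by the inverse became 1 under the 1.1-fold rule. The length trend, the 1.1-fold rule and the removal of paralogs and copies were added after seeing the data. Of 307 log2 folds of 44 named members with a counting interval, under 7 other settings, 307 stayed within that interval. Most of these settings could hardly move most values, so this count says little. Pseudocounts change high levels little, and a gene with 1 listed transcript keeps its value under the transcript settings. Scaling factors of 0.99787 and 0.99791 moved all genes by 0.003 on the log2 scale. No paired analysis was possible because neither siRNA had more than 1 library. The counting intervals of Rpl3l (6 reads with Set1a siRNA and 4 with control siRNA), Rpl39l (84 with Set1a siRNA and 107 with control siRNA) and Rpl7l1 (285 with Set1a siRNA and 299 with control siRNA) were the widest on a log scale.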
